A study of Sus scrofa with 16 samples.

Results

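The regions described here were the most strongly enriched compact peaks of DNA methylation in pig heart. They were taken from 4 lists of peaks, 1 per group of animals, as the peaks on chromosomes 1 to 18 with a fold enrichment of at least 20 and a length under 3000 bp. Of 1068880 peaks on these chromosomes, 1854 (0.173%) were members. The fold enrichment is the ratio that the authors' peak caller gave to each peak, and tags are the sequenced reads counted in a peak. The members were selected on the fold enrichment and the length, so these values are given as a description and were not tested between groups.

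Methylated DNA immunoprecipitation sequencing (MeDIP-seq) enriches sheared genomic DNA with an antibody against methylated cytosine before sequencing. In mammals this mark lies mostly at CpG dinucleotides, is copied when cells divide, and takes part in gene regulation and in silencing repeated sequences. A peak marks a place where immunoprecipitated fragments pile up, and its height depends on the number of methylated CpG sites as well as on how many cells carry the mark. It gives no methylation level for a single site.

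The libraries came from heart tissue of 16 castrated boars at 6 months of age, with 4 animals each of Tibetan pigs raised at highland (TH), Yorkshire pigs raised at highland (YH), Tibetan pigs raised at lowland (TL) and Yorkshire pigs raised at lowland (YL). All animals were conceived, born and raised where they were sampled. YH and TL descended from populations moved to the other elevation and bred there for 1 generation, and feeding was shared only among pigs of the same elevation. Each group was deposited as 1 list in which no peak carries an animal's name. A list held at most 4 members over the same base, and overlapping peaks of a list were read as peaks of different animals. With 1 list per group, the spread of these measures between animals cannot be assigned, and numbers of members, tags and fold enrichments were not tested between groups. Heart tissue is a mixture of cell types, and shares of cells and methylation per cell cannot be told apart. The number of reads per animal was not used here.

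The number of members differed more between lists than the number of peaks did. TH held 1030 members among 258861 peaks (0.398%, 95% Wilson interval 0.374% to 0.423%). YH held 199 among 263514 peaks (0.0755%, 0.0657% to 0.0868%). TL held 349 among 240851 (0.145%, 0.130% to 0.161%) and YL held 276 among 305654 (0.0903%, 0.0803% to 0.102%). These intervals cover counting error only, and peaks at the same place are not independent. The list with the most members was thus not the list with the most peaks, which was YL.

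The TH list also lay higher below the limit. The median fold enrichment of all its peaks was 8.28, compared with 7.29, 7.88 and 7.49 in the YH, TL and YL lists, and the 99th percentile was 18.05, 15, 16.1 and 15.6, respectively. Between 19 and 20-fold, just outside the limit, TH had 538 peaks, YH 96, TL 198 and YL 200. Between 20 and 21-fold, just inside, there were 348, 69, 135 and 89. The members nearest to the limit had 20-fold enrichment in TH (9 peaks with a median of 29 tags) and TL (3 peaks, 37 tags), while YH started at 20.07 (1 peak, 66 tags) and YL at 20.03 (2 peaks, 44.5 tags). The closest peaks outside were at 19.99 in TH (5 peaks, 50 tags), YH (1 peak, 61 tags) and YL (12 peaks, 36.5 tags), and at 19.96 in TL (2 peaks, 56.5 tags). In every list the limit ran through a well filled range of values, with no gap at 20-fold.

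The excess in TH was greatest in the lower part of the range and was not seen at its top. From 20 to under 22-fold, TH had 628 members, YH 113, TL 194 and YL 172, which together made up 1107 members (59.7%). At 25-fold and above the numbers were 108, 41, 59 and 41. At 30-fold and above they were 11, 11, 15 and 13, so that TL held the most. The highest single member of TH reached 38-fold, that of YH 37.0-fold, that of TL 41.4-fold and that of YL 35.5-fold.

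**Figure D1:**
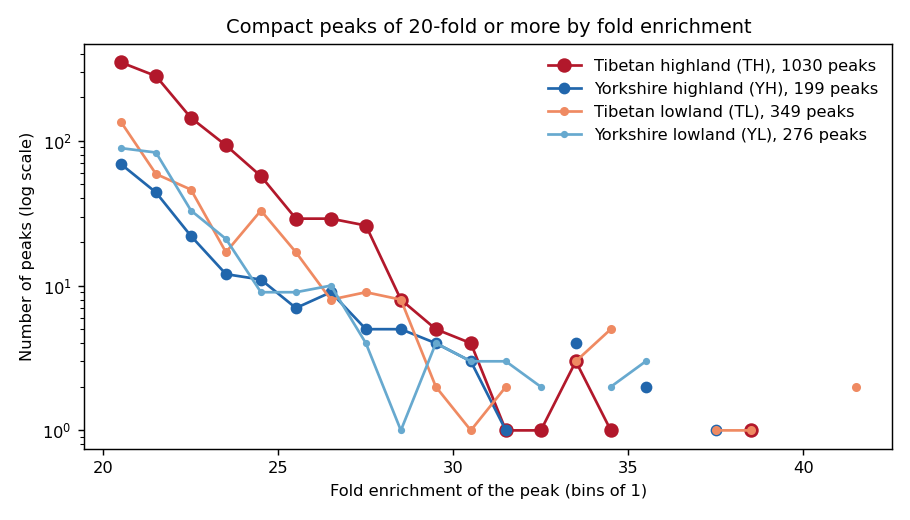
Number of members (log scale) against fold enrichment in bins of 1, with 1 line per list and bins without a member left out. TH (1030 members) lies above the other lists up to about 28-fold, and at 30-fold and above the 4 lists hold 11, 11, 15 and 13 members.

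Length did not separate the members in practice. Of the peaks on chromosomes 1 to 18, 34644 were 3000 bp or longer, and their highest fold enrichment in the TH, YH, TL and YL lists was 17.86, 14.62, 11.98 and 17.21. No peak of 20-fold or more was thus left out by the limit on length, and the longest members measured 2243, 2414, 2174 and 2486 bp, respectively. TH members had a median length of 874 bp (interquartile range 682 to 1051), YH members of 883 bp (681 to 1047), TL members of 809 bp (616 to 1003) and YL members of 880 bp (664 to 1057). All peaks had medians of 992, 1023, 941 and 1040 bp, so members were shorter in each list. Under 500 bp were 43 TH, 6 YH, 44 TL and 10 YL members.

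Members held more tags in less space. Median tags of TH, YH, TL and YL members were 37, 42, 33 and 43.5, compared with 27, 29, 25 and 30 over all peaks of these lists. Per kb, the medians were 45.5, 51.3, 44.6 and 48.9 tags in members against 27.6, 28.5, 26.8 and 29.2 in all peaks. A high fold enrichment did not require many tags, since the lowest numbers among members were 22, 27, 20 and 22. The highest were 295, 328, 297 and 297, and 98 members (28 TH, 23 YH, 26 TL and 21 YL) had 100 tags or more. These 98 peaks came from only 17 places in the genome, and 11 of those places had members in all 4 lists.

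The fold enrichments of members were not spread evenly but piled up at certain values. In each list many peaks had values that were whole multiples of a small number, here called a step, within 0.01. Among steps from 0.55 to 1.2, TH had 3 (0.727, 0.755 and 0.908), YH 3 (0.750, 0.593 and 0.689), TL 4 (0.923, 0.717, 1.01 and 0.806) and YL 4 (0.624, 0.645, 0.612 and 0.913). No 2 lists had a step of the same size, and no list had more steps than animals. The 11 YH members at 20.27-fold and the 9 at 21.02 lay on none of the YH steps but close to multiples of 0.750, and a further YH step too close to that one to be found was not tested.

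On exactly 1 of its list's steps lay 424 members of TH (41.2%), 66 of YH (33.2%), 173 of TL (49.6%) and 129 of YL (46.7%), while 7.77%, 8.67%, 9.15% and 11.2% of the possible values of 2 decimals in the range of these members lay on exactly 1 step. A value of 20-fold corresponded to between 20 multiples (step 1.01, TL) and 34 multiples (step 0.593, YH). The whole multiple was larger than the peak's number of tags in 1 of the 792 members on a step, and the median excess of tags over the multiple was between 3 and 11. Members on smaller steps tended to hold more tags, which the limit itself favours, since 20-fold takes more multiples of a smaller step. The median was 26 tags on the TL step of 1.01 and on the YL step of 0.913, and 47 on the YH step of 0.593.

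The TH members were unevenly shared among its steps, with 215 on 0.755, 167 on 0.727 and 42 on 0.908. In YL, 58 members lay on the widest step, 0.913, and 42, 16 and 13 on 0.624, 0.612 and 0.645. In TL the steps of 0.923, 1.01, 0.806 and 0.717 held 71, 45, 35 and 22 members. In YH the step of 0.750 held 44 and the others 11 each. Which animal a step belongs to is not given, and the part of these steps in the number of members per list was not tested.

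**Figure D2:**
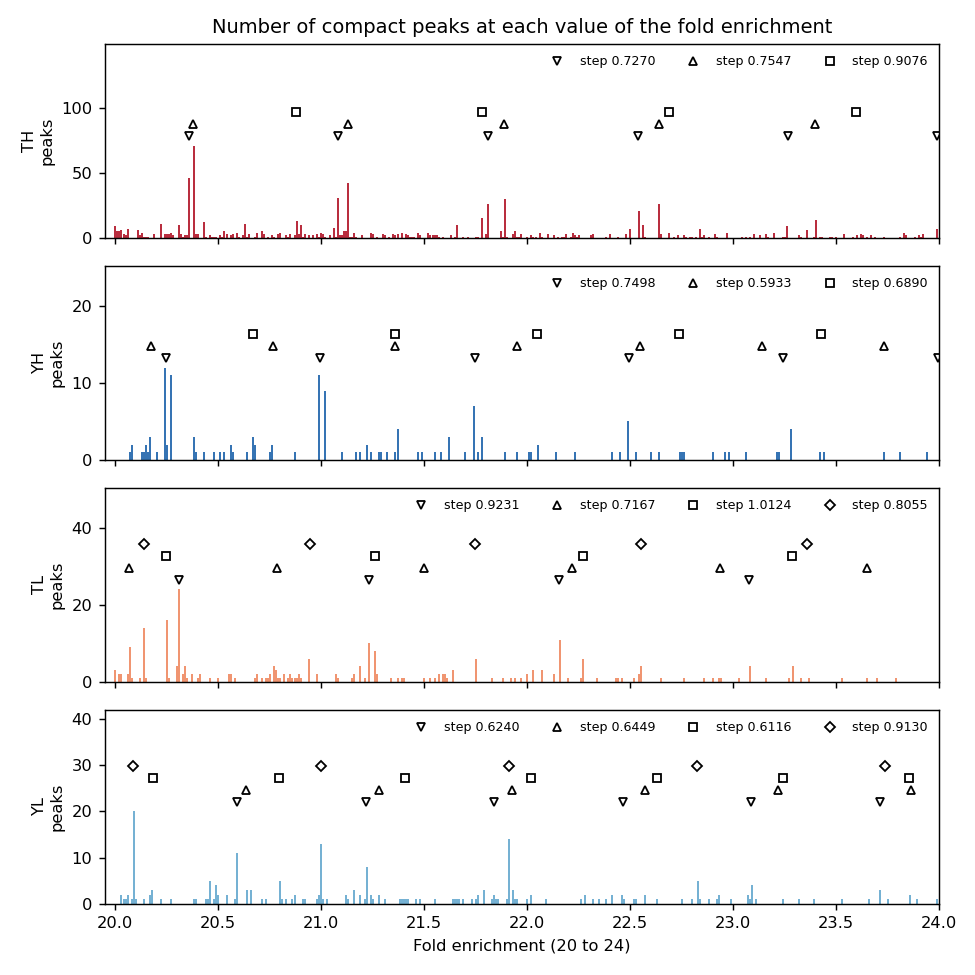
Number of members at each value of the fold enrichment from 20 to 24, in 1 panel per list, with open symbols above the bars at the whole multiples of each step found in that list. Many of the tall bars stand under symbols, while those of YH at 20.27 (11 members) and 21.02 (9) do not, and the 4 lists have different steps, from 0.593 to 1.01.

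Members that overlapped by at least 1 bp were joined across lists into 1072 loci with a median length of 916.5 bp (range 411 to 2581). Of these loci, 769 (71.7%) rested on 1 member. A small group stood at the other end, with 18 loci of 10 or more members that held 241 members in all, and 5 loci at which each list had 4 members. No locus had more than 4 members of a list.

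Within a list, a member was overlapped by another member for 398 of the 1030 TH members (38.6%, 95% Wilson interval 35.7% to 41.7%), 93 of the 199 YH members (46.7%, 39.9% to 53.7%), 132 of the 349 TL members (37.8%, 32.9% to 43.02%) and 129 of the 276 YL members (46.7%, 40.9% to 52.6%). Overlap with any peak of the own list was nearly complete, at 99.03% of TH, 99.5% of YH, 97.7% of TL and 100% of YL members. A member was thus nearly always overlapped by at least 1 other peak of its list, but less often by another member. One other animal is enough for such an overlap, and the share over all peaks of a list is not given here.

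Between lists, 855 loci (79.8%, 77.2% to 82.1%) had members in 1 list, 136 (12.7%) in 2, 45 (4.20%) in 3 and 36 (3.36%, 2.44% to 4.61%) in all 4. The same shares over all peaks of the lists are not given here, so these cannot be read as a trait of strong peaks. The 36 loci of all lists held 362 members, 19.5% of the total. Their median highest fold enrichment was 27.2 and their median number of tags 60, compared with 21.1 and 35 at loci of 1 list. The number of lists and the highest value come from the same peaks, and a locus with more members has more chances of a high value. Loci of 1 list belonged mainly to TH (621), followed by TL (124), YL (72) and YH (38).

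Counted as loci, TH had 807, YH 139, TL 264 and YL 196. TH and YH shared 80 loci, which were 9.91% of the TH loci and 57.6% of the YH loci. TH shared 117 with TL (14.5% of TH and 44.3% of TL) and 103 with YL (12.8% of TH and 52.6% of YL). YH shared 64 with TL (46.0% of YH and 24.2% of TL) and 58 with YL (41.7% of YH and 29.6% of YL), and TL shared 65 with YL (24.6% of TL and 33.2% of YL). The low shares of TH loci went with the size of its list.

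When the same number of compact peaks was taken from each list, the 199 with the highest fold enrichment, TH no longer stood out as much. Its weakest peak was then at 23.58-fold, against 20.07, 21.23 and 20.80 for YH, TL and YL. These peaks formed 397 loci, of which 291 (73.3%) were of 1 list and 22 (5.54%) of all 4. Loci of 1 list numbered 89 for TH, 63 for YH, 76 for TL and 63 for YL.

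No list had more than 4 members at a locus, so loci with 13 or more members had members in all 4 lists by construction. The strongest was chr17:35643977-35645077 (Sscrofa10.2, as all positions here), where all 16 peaks were members and all 16 summits lay within 46 bp. Its fold enrichments were 30.59, 33.75, 34.01 and 38 for the TH animals, 33.09, 35.32, 35.51 and 37.01 for YH, 34.74, 38.87, 41.01 and 41.4 for TL, and 25.58, 30.87, 35.16 and 35.51 for YL. TL had the highest mean (39.0 ± 3.05, SD, n = 4) and YL the lowest (31.8 ± 4.64), with TH at 34.1 ± 3.04 and YH at 35.2 ± 1.62. The ranges of TL and YL overlapped, since the lowest TL peak was below the highest YL peak. This locus gave the 3 highest members of TH, YH and TL and 2 of the 3 highest of YL, and its tags ranged from 41 to 183.

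The second locus, chr3:44470371-44471475, was even in both measures. Fold enrichment was 26.63, 28.73, 32.04 and 33.49 for TH, 28.85, 30.26, 31.21 and 33.55 for YH, 33.16, 34.09, 34.96 and 37.76 for TL, and 29.45, 31.58, 34.09 and 34.14 for YL. The 16 peaks held between 60 and 81 tags, with summits within 15 bp. The TL mean was again the highest (35.0 ± 1.99, n = 4), and the TL and TH ranges overlapped only between 33.16 and 33.49.

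At chr6:106052467-106053816 the tags were closer still, from 54 to 64 over 16 peaks with summits within 9 bp. The fold enrichments were 24.04, 27.47, 27.51 and 28.58 for TH, 25.88, 25.94, 26.12 and 30.95 for YH, 24, 27.04, 30.96 and 34.88 for TL, and 24.14, 28.07, 29.27 and 29.78 for YL. Peaks of nearly equal tags thus differed by over 10 in fold enrichment within TL, and the 4 groups overlapped.

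A pair of loci on chromosome 16 completed the 5. At chr16:54880043-54881375 the peaks were tall, with 108 to 221 tags, and the mean of TH was 25.5 ± 2.17 (22.8 to 28.12), of YH 27.1 ± 0.833 (26.3 to 27.87), of TL 29.0 ± 3.38 (25.16 to 33.39) and of YL 28.0 ± 2.46 (25.55 to 30.19). At chr16:54725851-54727283 the mean of TH was 25.1 ± 1.36 (23.67 to 26.81), of YH 28.2 ± 1.16 (26.86 to 29.64), of TL 29.9 ± 3.36 (25.71 to 33.29) and of YL 29.0 ± 3.45 (25.95 to 32.52). There the 4 YH peaks were all above the 4 TH peaks, by 0.05 at the closest, and held 114 to 159 tags against 58 to 104. At each of these 5 loci the TL list had the highest mean fold enrichment, and each mean joins values from 4 unnamed animals. TL also had the highest mean number of tags only at chr16:54880043-54881375 (206.25). The means were not tested between lists. Steps ran from 0.717 to 1.01 in TL, 0.727 to 0.908 in TH, 0.593 to 0.750 in YH and 0.612 to 0.913 in YL. The part of these steps in the TL means was not tested.

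A further 3 loci lacked a single member of 16. At chr17:69457906-69459109 the remaining TH peak was at 19.94-fold, and the other TH peaks were at 25.48, 27.44 and 30.55. At chr7:56016254-56017492, a locus with 123 to 169 tags per member, the remaining YL peak was at 19.84-fold and the other YL peaks were at 22.47, 26.22 and 26.29. At chr6:27178610-27179668 it was a TH peak at 15.52-fold, farther from the TH members at 21.69, 24.53 and 24.74. In the first 2 of these cases the missing member was a peak just below the limit, not a place without a peak.

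With 13 members each followed chr3:144113546-144114539, where TH had 4 members, YH 2, TL 3 and YL 4 (20.94 to 31.40-fold), and chr11:37956249-37957353, with 3, 4, 4 and 2 (22.01 to 31.16-fold). At the former, the remaining TL peak was of only 9.32-fold, and at the latter 3 of the 4 YL animals had a peak. The second highest YL member, at 35.46-fold, lay at chr15:155340153-155341541. There YL peaks were at 27.42, 29.22, 32.55 and 35.46 and YH peaks at 24.80, 28.49, 28.76 and 29.99, while TH peaks were at 15.52, 21.78, 23.40 and 27.63 and TL peaks at 10.47, 13.16, 15.77 and 22.16. All 4 TL peaks lay below all Yorkshire peaks, but the highest TH peak (27.63) was above the lowest YH (24.80) and YL (27.42) peaks. The locus was named for its YL member, and these fold enrichments were not tested. Each of the 16 animals had a peak, so a count of animals shows no breed difference at this place.

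Among the 18 loci with 10 or more members, some were uneven between lists. These were picked after their values were seen. At chr16:42813612-42815093, TH had 1 member at 21.47-fold and peaks at 17.98, 19.92 and 19.93, while the other lists had 4 members each between 20.84 and 26.69. At chr11:8309797-8311279, YH had no member, with peaks at 13.29, 15.31, 15.77 and 18.23-fold. TH had members at 20.24, 20.56, 22.31 and 24.59 there and YL at 22.09, 22.28, 22.32 and 23.99. At both places each animal had a peak. The member with the most tags of all, 328, was a YH peak at chr9:16885306-16886776, where the 11 members held 274 to 328 tags and reached only 20.08 to 24.03-fold and the other peaks lay between 17.53 and 19.96.

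**Figure D3:**
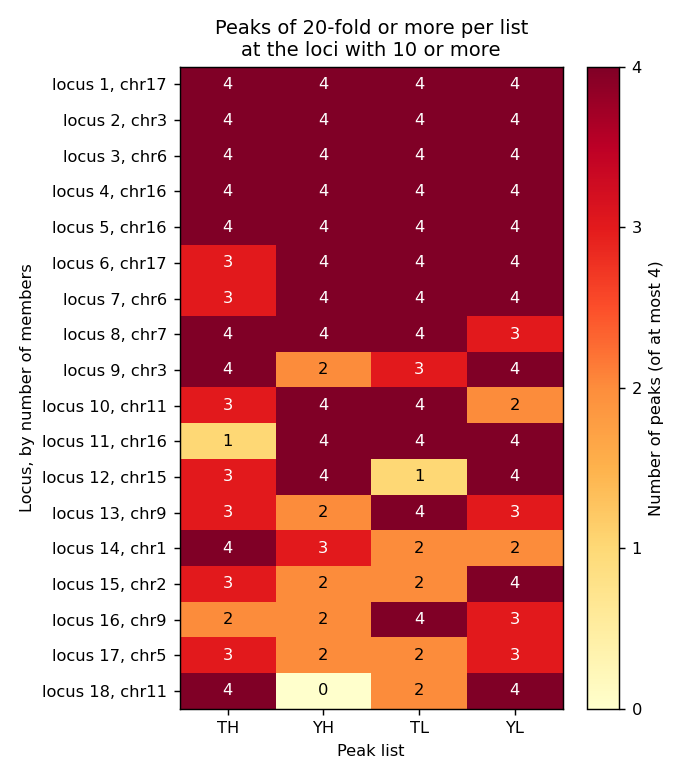
Number of members per list at the 18 loci with 10 or more members, in order of that number, with 1 row per locus (chromosome named) and 1 column per list. The upper 5 rows have 4 members in every list, and the last row has 4, 0, 2 and 4.

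Most loci carried a peak of some strength in most animals. Peaks of any enrichment were counted over the middle base of the 500 bp window that holds the summit of the locus. The median was 14 of 16 animals, compared with 3 over all 620135 windows with a peak. At 798 loci (74.4%, 71.7% to 77.0%) at least 12 animals had a peak, against 7.88% of all windows. At 281 loci (26.2%) all 16 animals had one, against 1.22%, and at 2 loci only 1 animal had one, against 33.1% of the windows. The difference is a description, since the choice of loci itself favours it. A locus needs a peak of at least 20-fold in some animal, and its window is placed on that peak's summit. The other windows need only a peak of any enrichment over their middle base.

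**Figure D4:**
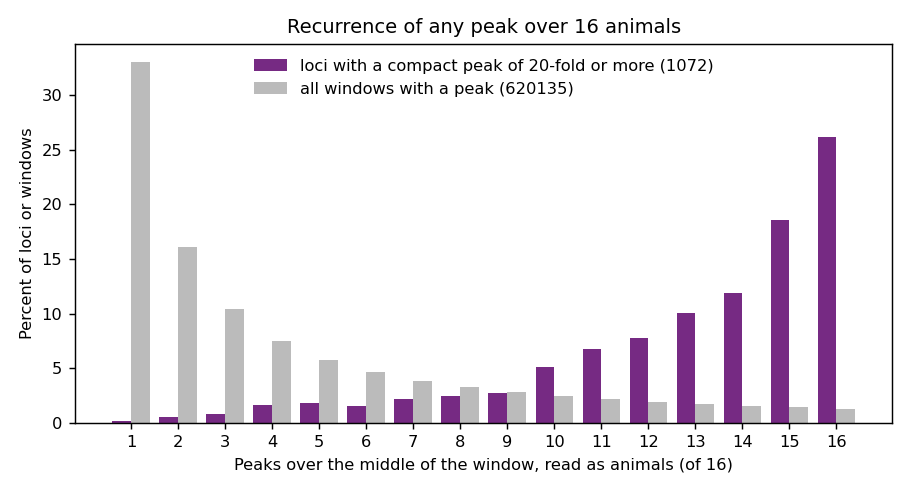
Percent of the 1072 loci (purple) and of all 620135 windows with a peak (grey) by the number of peaks over the middle of the window, read as animals of 16. Loci rise toward 16 animals (26.2%) and windows fall from 1 animal (33.1%).

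At 974 loci (90.9%) all 4 lists had at least 1 peak. The share of all windows with a peak in each of the 4 lists is not given here. The 12095 peaks at these windows that were not members had a median fold enrichment of 13.05 (interquartile range 10.9 to 15.5), above the 7.29 to 8.28 of all peaks. The strongest of them at a locus had a median of 18.1. Other animals' peaks at these places were therefore often strong without passing 20-fold.

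This held for loci with members in TH only as well. At these 621 loci the median was 14 of 16 animals, and peaks were found on average in 3.29 TH, 3.13 YH, 2.97 TL and 3.31 YL animals of 4. All 4 lists had a peak at 567 of them (91.3%), and here too the share over all windows is not given. The median was 14 animals at loci with members in YH only, 15 in YL only and 12 in TL only.

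Of the 855 loci with members in 1 list, 763 (89.2%) had a peak in each of the 4 lists, again without a share over all windows beside it. In TH, chr12:11230799-11231431 had members at 20.36, 21.13 and 29.05-fold, and peaks below the limit stood over it in 3 YH, 2 TL and 4 YL animals. In TL, chr12:24855904-24857188 had members at 25.05, 25.45 and 26.32, while TH peaks reached 18.98, YH peaks 18.05 and YL peaks 13.73. In YL, chr5:77099089-77100136 had 2 members (21.22 and 24.65) and a peak in all 16 animals.

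The members stood well above the peaks of the other lists at chr6:17012331-17013409. The YH members there had 22.96, 24.48 and 26.04-fold enrichment with 65 to 85 tags and summits within 2 bp. TH peaks were at 12.83 and 15.27, TL peaks at 8.60, 9.11 and 11.08, and YL peaks at 6.73, 9.13, 9.98 and 15.48. At chr16:29268654-29269374, TL had members of 25.67 and 28.25-fold with 53 and 62 tags, and only 1 TH, 3 TL, 1 YH and 1 YL animals had a peak, which is few for these loci.

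Whether animals with a peak differed by breed or elevation was tested with two-sided Fisher's exact tests over all 620135 windows. This measure counts peaks of any enrichment and overlaps the rule in so far as members are peaks themselves. For breed, 8 Tibetan against 8 Yorkshire animals, 0 of the 1072 loci passed an adjusted p of 0.05 (Benjamini-Hochberg), as did 0 of all windows (background 0%). Without adjustment 23 loci (2.15%) passed, 13 with more Tibetan and 10 with more Yorkshire animals, beside a background of 1.82% of windows (0.25% with more Tibetan and 1.57% with more Yorkshire animals). For elevation, 0 loci passed after adjustment (background 0%) and 3 (0.28%) without, beside a background of 0.407% (0.157% with more highland and 0.25% with more lowland animals). The smallest exact p that 8 against 8 animals can give is 0.000155. Over 620135 windows, a single window with that p cannot pass the adjustment. The lack of adjusted calls does not show that breeds or elevations are alike at these loci. For breed the loci with more Tibetan animals (1.21%) lay above their background and those with more Yorkshire animals (0.933%) below theirs, none of them with an adjusted p under 1. Loci with members in 1 list came mostly from Tibetan lists, with 621 of TH and 124 of TL against 38 of YH and 72 of YL. Such loci were chosen through a Tibetan peak and the background windows were not, so no breed direction can be read from these shares.

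The pairwise comparisons of 4 against 4 animals can reach no exact p below 0.0286, when all animals of a group have a peak and none of the other. Such splits occurred at 3 of 1068 loci between TH and YH (background 0.48% of windows), 9 of 1066 between TL and YL (0.76%, with 0.0872% of windows toward TL and 0.673% toward YL), 1 of 1067 between TH and TL (0.216%) and 1 of 1055 between YH and YL (0.267%). None passed an adjusted p of 0.05, and none could, since no p lies below 0.0286 and at most 0.76% of windows had such a split. The lack of adjusted calls is therefore no result about these loci. Of the 9 between TL and YL, 8 had the peaks in YL. The 1 between TH and TL, chr2:102758845-102759467, had TH members at 21.81 and 24.91-fold, TH peaks at 11.38 and 15.43 and no peak in TL, while YL had 4 peaks between 11.87 and 16.77.

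The locus with the smallest p for breed was chr1:158077728-158078766. It had no peak in the 8 Tibetan animals. YH had a member at 26.99-fold and peaks at 12.46 and 12.76, and YL had members at 25.15 and 26.83 and peaks at 14.07 and 17.35 (exact p = 0.0014, adjusted p = 1). On the Tibetan side, chr13:182168972-182170005 had peaks in 3 TH and 3 TL animals and in no Yorkshire animal (exact p = 0.00699, adjusted p = 1), but its only member was a TH peak of 20.80-fold and the TL peaks were between 7.17 and 10.15.

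Neighbouring loci on chromosome 17 differed in opposite directions, with a gap of 1027 bp between them, the smallest among all loci. At chr17:69527236-69528165, TL had peaks at 5.64, 13.85, 20.07 and 34.42-fold and TH at 11.49, 12.42 and 16.34, while the Yorkshire animals had 1 YL peak at 7.68 (exact p = 0.0101, adjusted p = 1). At chr17:69529193-69530085, TL had no peak. TH peaks were at 12.42, 20.92 and 29.40, YH peaks at 15.77, 15.85, 19.91 and 27.39, and YL peaks at 19.45, 19.99, 26.35 and 26.57 (exact p = 0.0256, adjusted p = 1). At the first place YH had no peak, and at the second TL had none.

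For elevation, chr5:103055645-103056723 had peaks in 4 TH, 4 YH, 1 TL and 2 YL animals (exact p = 0.0256, adjusted p = 1). Its member was a TH peak of 21.81-fold, while the YH peaks were between 6.00 and 8.90. chr8:29545469-29546365 had peaks in 3 TH, 3 YH, 0 TL and 1 YL animals (exact p = 0.0406, adjusted p = 1). In the other direction, chr18:41426992-41427715 had peaks in 3 TH, 0 YH, 4 TL and 4 YL animals (exact p = 0.0256, adjusted p = 1), and only YH set highland apart from lowland there.

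Along the chromosomes, loci were spread widely. There were between 34.2 (chromosome 6) and 52.5 (chromosome 3) loci per 100 Mb, and the median gap between neighbouring loci was 1379304 bp. Only 12 gaps were under 10 kb and 83 under 100 kb. The densest stretch of 1 Mb, at 142 to 143 Mb of chromosome 3, held 6 loci with 28 members, and the last stretch of chromosome 17, from 69 Mb, held 5 loci with 32 members. Chromosome 12 held 19 TH, 2 YH, 17 TL and 0 YL members, or 2.11, 0.230, 2.13 and 0 per 1000 of the list's peaks there. Over the chromosomes, the TH rate ranged from 1.95 (chromosome 10) to 6.05 (chromosome 15). The TL rate ranged from 0.786 (chromosome 14) to 2.67 (chromosome 16).

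The outer 10% at each chromosome end, together 20% of the length, held 203 TH members (19.7%, 17.4% to 22.2%), 51 YH members (25.6%, 20.1% to 32.1%), 95 TL members (27.2%, 22.8% to 32.1%) and 61 YL members (22.1%, 17.6% to 27.4%). Of all peaks, 25.98%, 25.6%, 25.5% and 25.1% lay there, respectively. The interval of TH lay below the share of all its peaks, and those of the other lists included it. Counted as loci, 212 of 1072 (19.8%, 17.5% to 22.3%) lay at the ends. With ends of 5%, the density of YH members at the ends relative to the middle was 2.19, against 1.38 with ends of 10%. Members at a shared locus are not independent positions, and these intervals take no account of that.

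**Figure D5:**
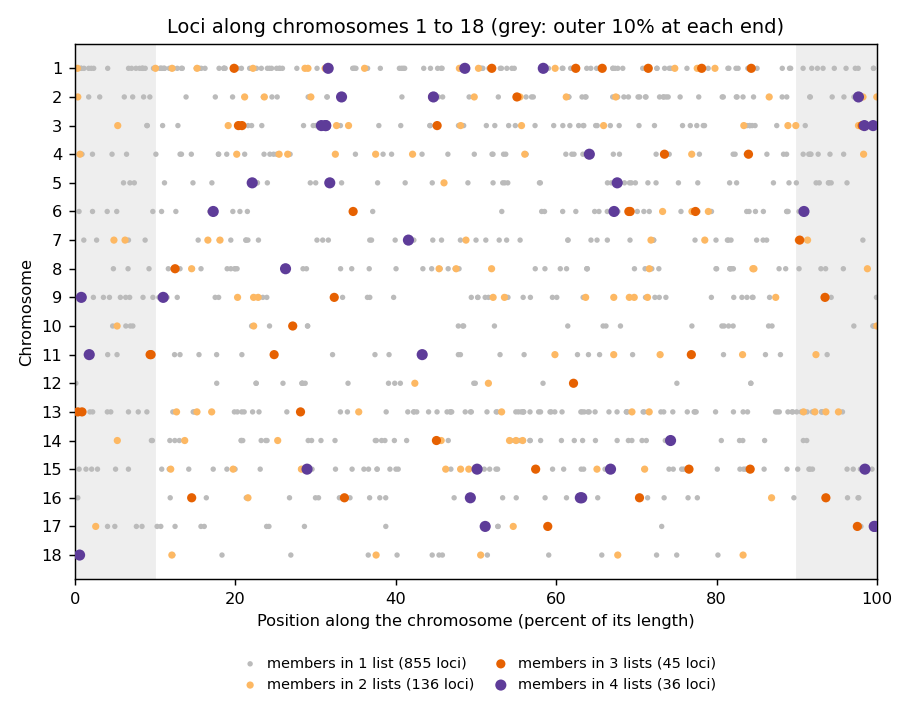
Position of the 1072 loci along chromosomes 1 to 18 as percent of chromosome length, with larger and darker points for members in more lists and grey bands for the outer 10% at each end. Loci with members in 1 list (855) lie along whole chromosomes, and the 36 loci of all 4 lists are found both inside and at the ends.

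One locus touched a window to which the study attached a gene. This was chr10:64922347-64922764, in a window annotated as intron of CAMK1D, which codes for a calcium/calmodulin-dependent protein kinase. Its member was a TH peak with 20.31-fold enrichment, 36 tags and a length of 418 bp, and the other TH peaks were at 11.57 and 14.54. YH had a peak at 9.49 and YL at 10.96, and TL had none. The genes and elements at the other loci, and the sequence of any locus, were not analysed here.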

How the data were processed

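Heart DNA of 16 pigs, 4 per group, was profiled by MeDIP-seq. The authors cleaned the reads with FASTX, aligned them to Sscrofa10.2 (Bowtie) and found peaks by MACS. They deposited 1 list per group. The number of tags is a count that the authors left unnormalized, and fold enrichment is the caller's ratio as deposited. What the ratio was taken against is not given in the sources used here. In 100907 rows of the TH list the peak end stands only in a joint field, from which it was read.

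Members overlapping by 1 bp were joined into loci. Named are the 3 strongest members per list, the 10 loci with most members, up to 5 loci per list with members nowhere else, the 5 loci per direction with the smallest p for breed and for elevation, gene-annotated loci and peaks at the limits, with fewer printed where they repeat. The members and lists were chosen with earlier results of these data known, and the steps were sought after seeing the values. A step was kept when its score, the excess of peaks at its multiples between 7 and 22-fold, was at least 200. The lowest kept was 210 and the highest not kept 116. Window counts and steps were tested on simulated data. Windows were 500 bp (middle base 250), tested by Fisher's exact test with Benjamini-Hochberg adjustment. Chromosome length was the largest peak end. Alternatives were fold limits of 15 and 25, a length under 2000 bp, chromosome X, at least 20 tags, ends of 5%, overlap of 50%, joining within 500 bp, equal numbers per list, peaks touching the window, windows with 4 to 12 animals and, chosen after seeing the data, leaving out the TH list. Intervals are 95% Wilson intervals. Read depth per animal was not used here. Tables were handled with pandas 2.3.3 and NumPy 2.4.6 under Python 3.11.15, tests with SciPy 1.17.1 and plots with Matplotlib 3.10.9.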

Additional observations from a re-analysis of the deposited data

Results flagged for a closer look

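Peaks of at least 20-fold and under 3000 bp were also found outside chromosomes 1 to 18, in data that the comparisons above did not use. Chromosome X held 19 TH, 6 YH, 5 TL and 4 YL peaks, which were 0.271%, 0.0784%, 0.131% and 0.0449% of the peaks there. Unplaced scaffolds held 91, 21, 37 and 30 (0.616%, 0.131%, 0.258% and 0.172%). On chromosomes 1 to 18 the shares were 0.398%, 0.0755%, 0.145% and 0.0903%. TH held the most on chromosome X and on unplaced scaffolds. Chromosome Y held 0 TH, 2 YH, 0 TL and 2 YL peaks of this kind, among only 21, 20, 38 and 21 peaks. No control library is among the 16 samples, and these numbers were not tested.

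At chr6:106052467-106053816 the highest YH peak, at 30.95-fold, stood far from the other YH peaks at 25.88, 25.94 and 26.12, while its 62 tags lay close to their 54 to 60. Of the 33 groups of 4 members screened in this way, it alone was flagged. The screen flags about 1 group in 20 by chance, so 1 flag among 33 is no result. The members were also selected on these fold enrichments. The animal of the 30.95-fold peak is not named.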

How the results depend on the processing

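Of 59 alternative values for 38 results, 45 stayed within the spread set for them and 14 moved. A limit of 15-fold gave TH 9258, YH 2794, TL 4287 and YL 4145 members, and a limit of 25-fold gave 108, 41, 59 and 41, by construction. TH had the most members at each limit. With ends of 5%, the density of members at the ends relative to the middle became 1.16 in TH, 2.19 in YH and 1.57 in YL, compared with 0.982, 1.38 and 1.13 at 10%, and the cause was not tested. The share of loci with members in 1 list was 73.3% with 199 peaks per list and 75.8% without the TH list, the latter chosen after seeing the data, and the share in all 4 lists was 5.54% with 199 peaks per list. No adjusted call was gained for breed or elevation under the alternatives run. No paired analysis was possible because the peaks carry neither an animal's name nor a replicate number, and leaving out single animals was not possible for the same reason. Few tags per peak and 1 list per group limit the precision of single values.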
